A study of Mus musculus with 6 samples.

Results

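The genes described here are 10 myeloid lineage transcription factors, chosen by name: Cebpa, Cebpb, Cebpd, Cebpe, Cebpg, Gfi1, Spi1, Irf8, Irf5 and Stat3. Each symbol matched 1 gene of the 56496 genes in the deposited table. RNA-seq was made from bone marrow cells of female Balbc mice from which a 4T1 tumour, grown from a mouse mammary carcinoma line, had been surgically removed. The Onway group (Onway 1, Onway 2 and Onway 3) received Onway by gavage for 2 weeks and is labelled day 14, and the Control group (Control 4, Control 5 and Control 6) received none and is labelled day 0. Treatment and labelled day therefore cannot be told apart. The label WT stands on all 6 libraries. The sources used here give neither the age of the mice nor the composition of Onway. Nothing in the labels ties a library to a single mouse, and p-values therefore cover only the spread between these libraries, which may be technical. The comparison asks how marrow transcripts differed between treated and untreated animals after surgery.

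These factors set the fate of myeloid progenitors. PU.1, the product of Spi1, opens the myeloid programme in both granulocytes and monocytes. C/EBPα and Gfi1 direct progenitors to the neutrophil path at steady state, and C/EBPε then switches on the genes of secondary granules. During infection or cytokine treatment, C/EBPβ sustains neutrophil output in what is called emergency granulopoiesis, C/EBPδ is induced by inflammatory signals, and STAT3 relays the receptors of G-CSF and interleukin 6. IRF8 favours monocytes and dendritic cells over neutrophils, and IRF5 drives inflammatory genes in macrophages. C/EBPγ lacks an activation domain and pairs with the other C/EBP proteins.

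The results turn on Cebpb and Irf8, so the 250 bases before their annotated starts are shown beside those of Cebpa, the steady-state counterpart of Cebpb. The sequences are from RefSeq on build GRCm38.p6, on the plus strand, which is the strand of all 3 genes, and end at the base before the start. Capitals mark each match, on either strand, to 8 motifs. These were the STAT site GAS (TTCNNNGAA), the cAMP response element (TGACGTCA) and its core (TGACG, which the full element contains), AP-1 (TGANTCA), C/EBP (TTGCNNAA), PU.1 (GAGGAA), a core of the interferon-stimulated response element and an NF-kB site.
Cebpb, chr2:167688665-167688914: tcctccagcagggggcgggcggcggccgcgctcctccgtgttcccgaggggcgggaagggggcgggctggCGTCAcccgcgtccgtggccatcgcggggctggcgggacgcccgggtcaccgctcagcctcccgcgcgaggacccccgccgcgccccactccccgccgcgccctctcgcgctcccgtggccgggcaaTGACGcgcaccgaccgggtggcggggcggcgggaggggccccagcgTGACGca
Irf8, chr8:120736108-120736357: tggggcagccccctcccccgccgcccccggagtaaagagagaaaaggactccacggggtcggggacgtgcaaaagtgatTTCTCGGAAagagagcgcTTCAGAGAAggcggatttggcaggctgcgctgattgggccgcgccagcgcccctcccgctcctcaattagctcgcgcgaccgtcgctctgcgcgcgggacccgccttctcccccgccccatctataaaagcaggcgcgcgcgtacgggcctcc
Cebpa, chr7:35119043-35119292: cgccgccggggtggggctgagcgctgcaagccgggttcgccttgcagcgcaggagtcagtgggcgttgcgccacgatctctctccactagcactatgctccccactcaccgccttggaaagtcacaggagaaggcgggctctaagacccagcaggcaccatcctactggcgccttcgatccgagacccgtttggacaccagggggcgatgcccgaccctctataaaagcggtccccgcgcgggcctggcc
The Cebpb window held the core TGACG 3 times, at 180 to 176, 53 to 49 and 7 to 3 bases before the start, and no other motif searched. Of 32817 RefSeq windows of the same length, 17.7% held that core at least once and 0.69% at least 3 times. The Irf8 window held GAS at 171 to 163 and at 153 to 145 bases before the start. Of all windows, 7.0% held GAS at least once and 0.32% at least 2 times. The Cebpa window, and the Irf5 window at chr6:29526375-29526624, held none of the 8 motifs. The other shares were 1.5% for the full cAMP element, 6.8% for AP-1, 9.6% for C/EBP, 23.3% for PU.1, 3.0% for the interferon core and 0.4% for NF-kB. The Cebpb window is rich in CpG, with 41 and a GC content of 81.6%, against medians of 6 and 52.4% over all windows. The shares of repeated matches were taken only at the counts seen in the Cebpb and Irf8 windows. The windows compared were not matched for GC or CpG, and TGACG holds a CpG. A match is a description of letters and not a measured site.

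Values are TPM, transcript abundances scaled for length and to the same total in each library, which the authors deposited per transcript and which were summed here to genes. Levels of different genes can therefore be compared, but TPM keeps no read depth. Values of single libraries stand in the order Control 4, 5 and 6, then Onway 1, 2 and 3. From 13354 to 14252 genes had at least 1 TPM, depending on the library. Haemoglobin genes took 11.6% to 26.6% of the TPM in Control and 9.39% to 33.9% in Onway, with the highest shares in Control 4 and Onway 3. Mature neutrophil markers, abundant in marrow, summed to between 79370 and 181502 TPM in Control and between 87382 and 163665 TPM in Onway, and 6 mammary epithelium markers to 4.73 to 7.59 and 3.67 to 6.74 TPM. In bulk marrow, fewer cells of a type and less RNA per cell cannot be told apart. Markers of other cells differed between the groups: all 6 megakaryocyte and all 6 skeletal muscle markers, 5 of 6 bone and stroma markers, 4 of 5 endothelial markers and 1 of 6 tissue macrophage markers fell, and 5 of 11 immediate early genes rose (limma, Benjamini-Hochberg adjusted p under 0.05). Megakaryocyte markers summed to 1814 to 2046 TPM in Control and 87.8 to 139.8 TPM in Onway libraries, and muscle markers to 573 to 3688 and 12.6 to 17.7 TPM. No gene of these marker lists was at 0 in all libraries, and their part in the results on the 10 factors was not tested.

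**Figure D1:**
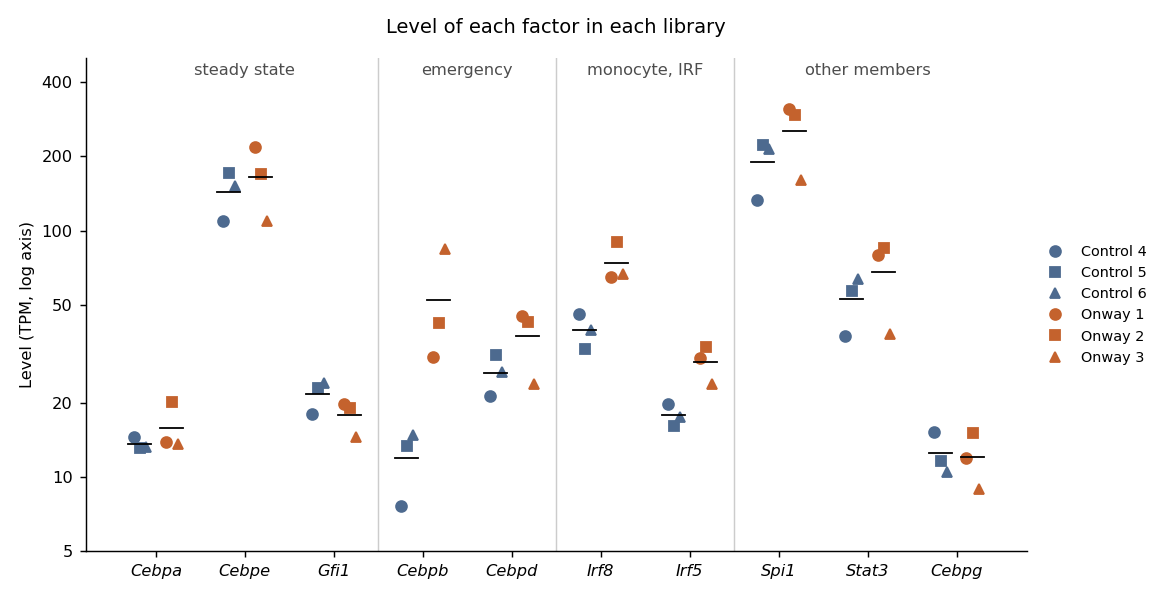
Level of the 10 factors (TPM, log axis) in the 3 Control libraries (blue) and the 3 Onway libraries (orange), with a black line at each group mean. For Cebpb, Irf8 and Irf5 every Onway library lies above every Control library.

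Cebpb, Irf8 and Irf5 had higher levels in every Onway library than in any Control library, and no other member did. The groups overlapped in the 3 steady-state factors, in the emergency factor Cebpd, and in Spi1, Stat3 and Cebpg. Cebpb averaged 11.9 TPM in the Control group and 52.3 TPM in the Onway group, Irf8 39.4 and 73.8 TPM, and Irf5 17.8 and 29.3 TPM. None of the 10 members passed the threshold in limma's test over all 14192 tested genes (a mean of at least 1 TPM, which all 10 members reached), and 3 had an unadjusted p under 0.05. Over all tested genes 0.233% were called higher and 2.99% lower in Onway, 3.22% in all, and 13.4% had an unadjusted p under 0.05. Among members, 3 of 10 were higher without overlap and 0 lower, against 6.95% and 11.5% of all tested genes (18.4% in either direction). The count of members higher without overlap was 6 without Onway 3, against 25.8% of all genes, and 8 without both Control 4 and Onway 3, against 38.9% of all genes.

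All 10 members are protein-coding genes. On GRCm38 with GENCODE M21, Cebpd lies at chr16:15887286-15891031, Cebpe at chr14:54710360-54712174, Cebpg at chr7:35046422-35056573 and Gfi1 at chr5:107716657-107726036. Spi1 lies at chr2:91082390-91115756 and Stat3 at chr11:100885098-100939540. Spi1 and Cebpe stood first and second among the 10 in all 6 libraries. In Control the order of the mean levels went on with Stat3, Irf8, Cebpd, Gfi1, Irf5, Cebpa, Cebpg and Cebpb. Cebpb was thus last in Control, and in Onway it took place 5. By library its place was 10, 8 and 8 among the Control libraries and 6, 6 and 3 among the Onway libraries. The lower places of the Control order, Cebpa at 13.6 ± 0.795 TPM, Cebpg at 12.4 ± 2.46 TPM and Cebpb at 11.9 ± 3.76 TPM (SD, n = 3), lay within each other's spread. Against all tested genes Cebpb stood at the 53.1 percentile of Control levels and the 85.5 percentile of Onway levels, and Spi1 at 96.2 and 97.1.

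Among the steady-state granulocyte factors, Cebpa, on chromosome 7 at 35119293 to 35121928 (GRCm38, GENCODE M21), measured 14.5, 13.1 and 13.2 TPM in Control and 13.8, 20.1 and 13.7 TPM in Onway. Onway 2 alone lay above the Control range. The log2 fold change of Cebpa was 0.18 on the log2(TPM + 1) scale, which understates changes of low genes (SE 0.19, 95% interval −0.26 to 0.63, limma with Benjamini-Hochberg adjusted p = 0.74). Cebpe, which drives the late neutrophil granule genes, measured 109, 171 and 152 TPM in Control and 218, 170 and 109 TPM in Onway, in the same library order. The Cebpe groups overlapped over nearly the whole Control range (log2 fold change 0.17, SE 0.30, 95% interval −0.52 to 0.86, adjusted p = 0.86). Gfi1, a repressor that opposes the monocyte programme, measured 18.1, 22.8 and 24.0 TPM in Control and 19.7, 19.1 and 14.6 TPM in Onway. The Gfi1 groups overlapped as well, though Onway 3 was the lowest of the 6 libraries (log2 fold change −0.27, SE 0.19, 95% interval −0.71 to 0.17, adjusted p = 0.61). With all transcripts and all libraries, the intervals of Cebpa, Cebpe and Gfi1 end short of a log2 change of 1 in either direction. The estimates are small and moved with single libraries. That of Cebpa was 0.01 without Onway 2, that of Gfi1 −0.14 without Onway 3, and that of Cebpe −0.055 without Onway 1 and 0.44 without Onway 3.

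The Cebpa and Gfi1 levels rest partly on transcripts that the authors' assembly added to the annotation. Such transcripts made up 80.8% to 91.1% of Gfi1 in every library. For Cebpa they made up 44.5% to 58.4% in the 3 Control libraries and Onway 1, 19.8% in Onway 2 and 0.0% in Onway 3. The annotated Cebpa-201 transcript had 4.05 ± 0.420 TPM in the Control group and 11.4 ± 6.13 TPM in the Onway group. With annotated transcripts alone the log2 fold change of Cebpa was 0.69 (SE 0.35, adjusted p = 0.46), an estimate that does not exclude a log2 change of 1. Cebpb and Cebpe each had 1 annotated transcript and no assembled one.

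Cebpb had the largest log2 fold change among the 10 members. The gene, on chromosome 2 at 167688915 to 167690418, measured 7.64, 13.3 and 14.7 TPM in Control and 30.8, 42.0 and 84.2 TPM in Onway. Every Onway library was above every Control library, and Onway 3 was well above the other two. The log2 fold change was 1.97 (SE 0.41, 95% interval 1.00 to 2.93), which did not pass over all genes (limma, Benjamini-Hochberg adjusted p = 0.059). Of all tested genes, 2.45% differed by at least as much in either direction. The limma call was made without Onway 1 (adjusted p = 0.036) and without both Control 4 and Onway 3 (adjusted p = 0.047, log2 fold change 1.30). It was also made with annotated transcripts alone (adjusted p = 0.046), where the Cebpb values were the same and fewer genes were tested. Over the 15 alternatives the adjusted p ran from 0.036 to 0.16.

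Cebpd, the other inducible factor, did not share the pattern of Cebpb in Onway 3. It measured 21.3, 31.3 and 26.5 TPM in Control and 45.0, 42.7 and 23.9 TPM in Onway. Onway 1 and Onway 2 lay above all Control libraries, and Onway 3 lay within the Control range (log2 fold change 0.45, SE 0.27, adjusted p = 0.55). It was 0.73 without Onway 3 and 0.29 without Onway 1, with adjusted p-values of 0.13 and 0.90. When haemoglobin genes were left out and TPM rescaled, Cebpd measured 28.9, 35.4 and 32.5 in Control and 52.0, 47.1 and 36.1 in Onway, with no overlap (adjusted p = 0.27). On that scale Gfi1 too had no overlap, at 24.6, 25.9 and 29.3 in Control and 22.7, 21.1 and 22.0 in Onway (adjusted p = 0.41). With that rescaling, 4 of the 10 members were higher without overlap and 1 lower. Of the 14763 genes tested there, 9.585% were higher and 11.97% lower without overlap.

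**Figure D2:**
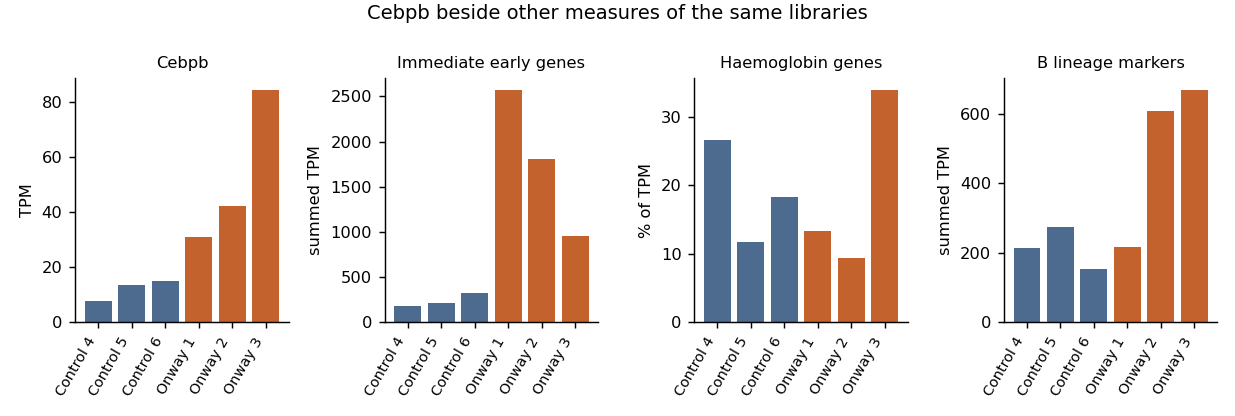
Cebpb (TPM), the summed TPM of 11 immediate early genes, the share of TPM in haemoglobin genes (%) and the summed TPM of 7 B lineage markers, as bars for each library (Control blue, Onway orange). Onway 3 is highest of the 3 Onway libraries for Cebpb, haemoglobin and B lineage markers and lowest for the immediate early genes.

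Several measures differed between libraries beside Cebpb. The 11 immediate early genes, transcription factors and signalling regulators induced within minutes, summed to 178, 207 and 321 TPM in Control and to 2571, 1812 and 949 TPM in Onway, so that the Onway libraries ran in the opposite order to Cebpb. The 7 B lineage markers summed to 212, 274 and 154 TPM in Control and 215, 607 and 668 TPM in Onway. Of these 7 none was called, 4 had an unadjusted p under 0.05 in limma (against 13.4% of all tested genes), and none was at 0 in all libraries. Haemoglobin genes took 26.6%, 11.6% and 18.3% in Control and 13.4%, 9.39% and 33.9% in Onway. The part of these measures in the Cebpb result was not tested.

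The make-up of the C/EBP family differed with Cebpb. Of the summed TPM of the 5 C/EBP genes, Cebpb made up 4.56%, 5.55% and 6.78% in Control and 9.63%, 14.5% and 35.1% in Onway. Cebpe made up 65.0%, 71.2% and 70.1% in Control and 68.2%, 58.6% and 45.5% in Onway. The Cebpb shares did not overlap, and the Cebpe shares did. Cebpd held 12.6% ± 0.402 and 12.9% ± 2.59 (SD, n = 3). These shares are a description and were not tested.

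Irf8, on chromosome 8 at 120736358 to 120756694, measured 45.7, 33.0 and 39.4 TPM in Control and 64.8, 90.0 and 66.7 TPM in Onway. All Onway libraries lay above all Control libraries. The log2 fold change of Irf8 was 0.89 (SE 0.20, 95% interval 0.42 to 1.36, limma with Benjamini-Hochberg adjusted p = 0.071). The main annotated transcript, Irf8-201, carried 94.4% of the Control level and 95.3% of the Onway level. Irf5, on chromosome 6 at 29526625 to 29541871, measured 19.7, 16.1 and 17.6 TPM in Control and 30.3, 33.7 and 23.8 TPM in Onway, again without overlap. Its log2 fold change was 0.68 (SE 0.18, 95% interval 0.25 to 1.11, adjusted p = 0.13). With quantile normalization between libraries both passed, Irf8 at an adjusted p of 0.048 and Irf5 at 0.027. Over the alternatives the adjusted p ran from 0.048 to 0.23 for Irf8 and from 0.027 to 0.40 for Irf5. All 6 monocyte markers overlapped between the groups (median log2 fold change 0.46). Of the 7 B lineage markers, 1 was higher without overlap (median 1.31), against 6.95% of all tested genes. The part of either cell type in the Irf8 and Irf5 levels was not tested.

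**Figure D3:**
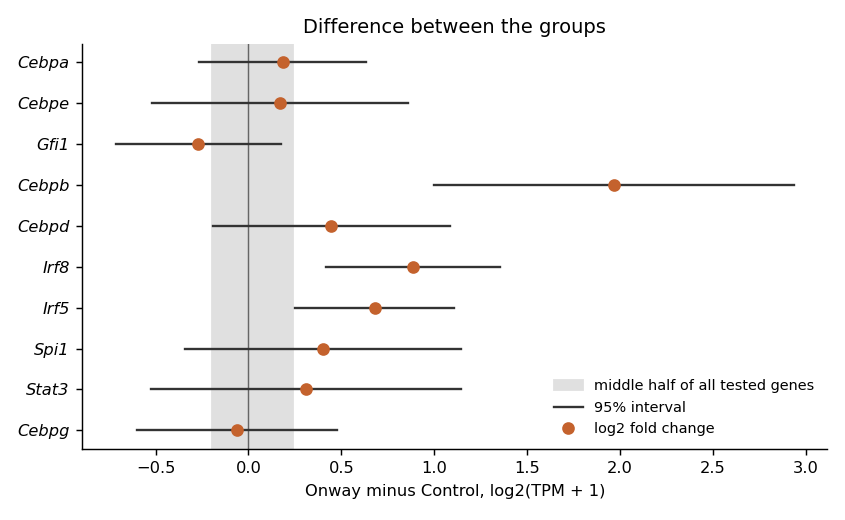
Log2 fold change of each factor (points, Onway minus Control on log2(TPM + 1)) with its 95% interval (lines) from limma, n = 3 per group. The grey band spans the quartiles of all tested genes, −0.20 to 0.24, and the intervals of Cebpb, Irf8 and Irf5 lie above 0.

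Spi1, Stat3 and Cebpg had overlapping groups. Spi1 measured 133, 222 and 214 TPM in Control and 311, 294 and 160 TPM in Onway. Stat3 measured 37.1, 57.0 and 63.6 TPM in Control and 79.9, 85.3 and 37.9 TPM in Onway. In both genes Onway 1 and Onway 2 lay above every Control library and Onway 3 lay within the Control range. The log2 fold change was 0.40 for Spi1 (SE 0.32, 95% interval −0.34 to 1.15) and 0.31 for Stat3 (SE 0.35, 95% interval −0.53 to 1.14), with adjusted p-values of 0.67 and 0.77 in limma. Single libraries moved both values widely, from 0.17 without Control 4 to 0.71 without Onway 3 for Spi1, and from 0.08 without Control 4 to 0.68 without Onway 3 for Stat3. For Spi1 it was also 0.23 without Onway 1, and for Stat3 0.15 without Onway 1 and 0.10 without Onway 2. None of these passed (the lowest adjusted p was 0.23 for each gene). Cebpg measured 15.2, 11.6 and 10.5 TPM in Control and 11.9, 15.1 and 8.94 TPM in Onway, with overlapping groups (log2 fold change −0.06, SE 0.23, 95% interval −0.60 to 0.48, adjusted p = 0.94).

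In 5 of the 10 members, Cebpd, Cebpe, Gfi1, Spi1 and Stat3, Control 4 was the lowest Control library and Onway 3 the lowest Onway library. These are the libraries with the highest haemoglobin shares. Cebpb, Irf8 and Irf5 were not among them. The share of all tested genes with this order of libraries was not counted. Without both Control 4 and Onway 3, 38.9% of all tested genes were higher without overlap, against 6.95% with all libraries. After haemoglobin genes were left out and TPM rescaled, Gfi1 no longer had its lowest Onway level in Onway 3 but in Onway 2. Cebpd, Cebpe, Spi1 and Stat3 still had their lowest levels of each group in Control 4 and Onway 3. Spi1 measured 181, 251 and 261 in Control and 359, 324 and 242 in Onway. Cebpe measured 148, 193 and 186 in Control and 252, 188 and 165 in Onway, and Stat3 50.6, 64.5 and 77.8 in Control and 92.2, 94.1 and 57.3 in Onway. The part of the haemoglobin share in these levels was not tested. On that scale the log2 fold change was 2.00 for Cebpb and 0.90 for Irf8, with adjusted p-values of 0.12 and 0.10 in limma.

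**Figure D4:**
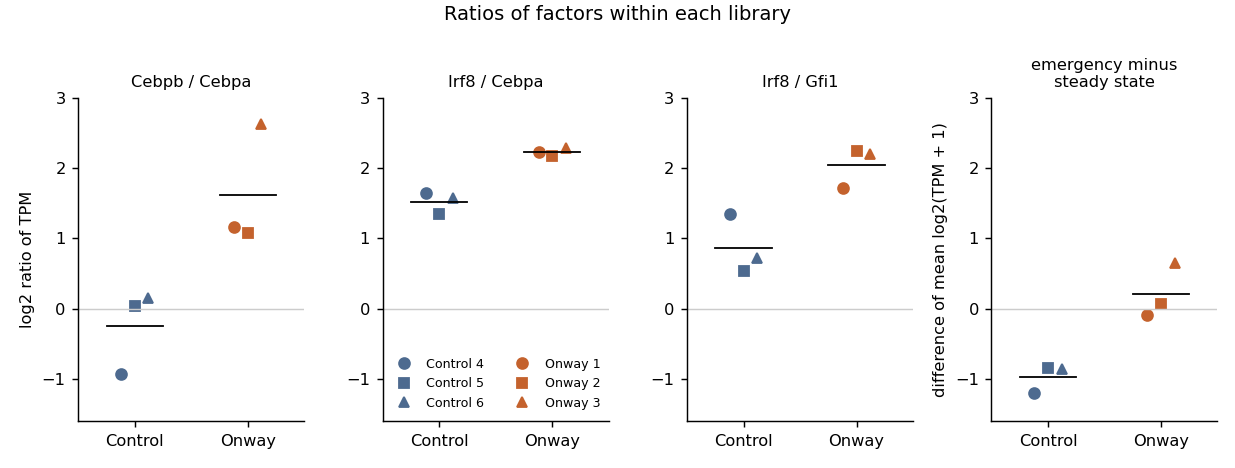
Log2 ratios of TPM between pairs of factors within each library, and at the right the mean log2(TPM + 1) of Cebpb and Cebpd minus that of Cebpa, Cebpe and Gfi1, with a black line at each group mean. With all transcripts, as drawn, the groups do not overlap in any panel, and Onway 3 is highest in the panels with Cebpb.

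Ratios of factors within a library do not depend on how TPM is scaled. The ratio of Cebpb to Cebpa was 0.526, 1.02 and 1.11 in Control and 2.23, 2.10 and 6.17 in Onway. Over all transcripts, every Onway library thus held more Cebpb than Cebpa. Control 4 held less, and Control 5 and Control 6 about as much. The log2 ratio averaged −0.25 ± 0.59 in Control and 1.62 ± 0.87 in Onway (SD, n = 3), a difference of 1.87. The ratio of Irf8 to Cebpa was 3.15, 2.53 and 2.97 in Control and 4.70, 4.49 and 4.89 in Onway, a difference of 0.71 on the log2 scale with an SD of 0.16 in Control and 0.06 in Onway. That of Irf8 to Gfi1, factors known to oppose each other, was 2.53, 1.45 and 1.64 in Control and 3.29, 4.72 and 4.58 in Onway, a log2 difference of 1.19. For each of these 3 ratios the two-sided exact permutation test over 20 assignments gave p = 0.1, the smallest this design allows, and an adjusted p of 0.1 over the 3. With annotated transcripts alone, the log2 difference was 0.15 for Irf8 to Cebpa and 1.30 for Cebpb to Cebpa. The groups then overlapped in each of these ratios. For Irf8 to Cebpa, Onway 3 lay below every Control library and Onway 2 just below the lowest, Control 5. Only Onway 1 lay above the Control libraries in that ratio. For Cebpb to Cebpa, Onway 2 lay just below Control 6, and Control 5 and Control 6 held more Cebpb than annotated Cebpa. The permutation test was run only with all transcripts. With all transcripts, the log2 difference of Cebpb to Cebpa was 1.36 without Onway 3, and 1.02 when Control 4 was left out as well.

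Set against each other as groups, the emergency factors Cebpb and Cebpd had a lower mean log2 level than the steady-state factors Cebpa, Cebpe and Gfi1 in Control, and a similar one in Onway. The difference was −1.20, −0.85 and −0.86 in Control and −0.09, 0.06 and 0.65 in Onway. The means differed by 1.18, against SDs of 0.20 and 0.39. Of the emergency factors, Cebpb had a log2 fold change of 1.97 and Cebpd one of 0.45. This score over members was given no test.

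**Figure D5:**
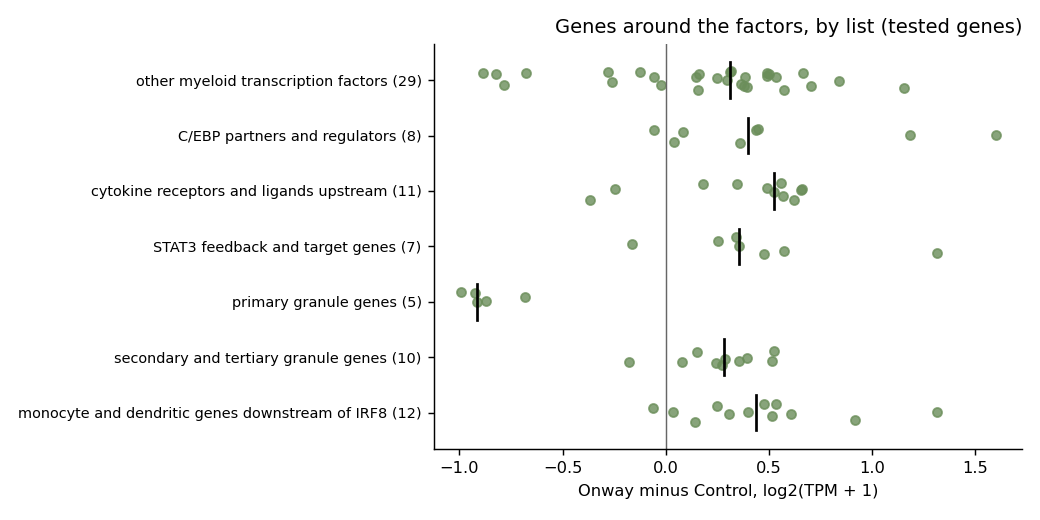
Log2 fold change (Onway minus Control on log2(TPM + 1)) of each tested gene in 7 lists of genes around the factors (points) with the list's median (black line) and the number of tested genes in brackets. The 5 primary granule genes lie below 0 with a median of −0.91, and the other medians lie between 0.28 and 0.52.

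Genes that work with these factors or follow them were read from 7 lists with 82 tested genes. None of the 82 passed the threshold in either direction in limma's test, and 19 had an unadjusted p under 0.05. Of the 82, 62 had a positive sign, against 53.6% of all tested genes, and the median log2 fold change over all tested genes was 0.03. Without overlap 16 were higher and 5 lower, against 6.95% and 11.5% of all tested genes.

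Of 29 other myeloid transcription factors 20 had a positive sign (median 0.31), with 10 higher and 4 lower without overlap. Meis1, a stem and progenitor cell factor, had levels of 5.11 ± 0.828 TPM (Control) and 2.45 ± 0.348 TPM (Onway) (adjusted p = 0.082, limma). Id2, an inhibitor of helix-loop-helix factors, was at 28.4 ± 4.13 and 46.9 ± 7.36 TPM (adjusted p = 0.13). Irf4, which acts in lymphocytes and dendritic cells and is close to Irf8 in structure, was at 7.24 ± 2.09 and 17.96 ± 6.93 TPM (adjusted p = 0.16). Of the Onway libraries, Irf4 was higher in Onway 2 and Onway 3, at 23.6 and 20.1 TPM, than in Onway 1, at 10.2 TPM. The B lineage markers were higher in those libraries too, and their part in the Irf4 level was not tested.

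Among 8 partners and regulators of C/EBP proteins 7 had a positive sign (median 0.40), and 2 were higher without overlap. Trib1, which promotes the breakdown of C/EBPα protein, was at 6.5, 6.42 and 12.6 TPM in Control, against 48.2, 29.8 and 12.9 TPM in Onway (log2 fold change 1.60, SE 0.50, adjusted p = 0.22). The Onway libraries ran in the order of the immediate early genes and against that of Cebpb. The further values, explained at the end, were 26.1 TPM (Control) and 7.69 TPM (Onway). Trib2, of the same family, was at 10.5 ± 4.58 and 26.5 ± 13.2 TPM, and Trib3 at 0.840 ± 0.278 and 1.497 ± 0.425 TPM (adjusted p = 0.37 and 0.51).

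Cytokine receptors and their ligands included 11 tested genes, 9 with a positive sign (median 0.52) and 2 higher without overlap. Flt3, a receptor of early progenitors and dendritic cell precursors, was at 3.54 ± 0.580 and 6.16 ± 0.801 TPM, and Il3ra, a subunit of the interleukin 3 receptor, at 6.32 ± 1.35 and 9.73 ± 1.60 TPM (adjusted p = 0.16 and 0.29). Il6ra, the interleukin 6 receptor upstream of STAT3, was at 13.7, 14.3 and 16.6 TPM in Control and 28.6, 31.1 and 13.99 TPM in Onway (adjusted p = 0.43). Onway 3 again lay within the Control range.

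Of 7 STAT3 feedback and target genes 6 had a positive sign (median 0.36) and none was free of overlap. Socs3, the feedback inhibitor of cytokine receptors, was at 5.16, 23.7 and 17.5 TPM in Control and 61.9, 56.7 and 10.9 TPM in Onway (log2 fold change 1.31, SE 0.85, adjusted p = 0.59). Mcl1, a survival protein, was at 120 ± 13.3 and 186 ± 61.1 TPM, and Pim1, a kinase induced by STAT proteins, at 73.4 ± 1.67 and 96.1 ± 27.5 TPM (adjusted p = 0.44 and 0.61). Onway 1 and Onway 2 were the highest libraries for Socs3, as they were for Stat3.

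Granule genes gave medians of opposite sign. All 5 tested primary granule genes, made in promyelocytes, had a negative sign (median −0.91). Elane, neutrophil elastase, was at 1093, 2013 and 1590 TPM in Control, against 1046, 920 and 544 TPM in Onway, without overlap (log2 fold change −0.91, SE 0.32, adjusted p = 0.26). Prtn3, proteinase 3, was at 1792 ± 719 and 912 ± 369 TPM, and Ctsg, cathepsin G, at 756 ± 315 and 393 ± 138 TPM (adjusted p = 0.39 for each). The other 2, Mpo and Ms4a3, were at 1848 ± 436 and 1175 ± 384 TPM and at 345 ± 139 and 189 ± 73.9 TPM. Of 10 secondary and tertiary granule genes, many of them driven by C/EBPε, 9 had a positive sign (median 0.28) and all overlapped. Mmp9 and Mmp8, proteases of these granules, were at 492 ± 42.2 and 731 ± 239 TPM and at 375 ± 94.97 and 541 ± 139.8 TPM (adjusted p = 0.48 and 0.49), and Cybb, a subunit of the phagocyte oxidase, at 222 ± 37.4 and 294 ± 96.6 TPM (adjusted p = 0.68).

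Of 12 monocyte and dendritic cell genes downstream of IRF8, 11 had a positive sign (median 0.44) and 2 were higher without overlap. Cd74, the invariant chain of class II molecules, which B cells also express, was at 179, 75.1 and 139 TPM in Control and 189, 315 and 490 TPM in Onway (log2 fold change 1.31, SE 0.44, adjusted p = 0.25). Ly86, a partner of a Toll-like receptor homologue on myeloid and B cells, was at 24.3 ± 2.10 and 36.2 ± 9.09 TPM (adjusted p = 0.30). Siglech, a marker of plasmacytoid dendritic cells, was at 7.06 ± 3.46 and 13.8 ± 4.56 TPM (adjusted p = 0.35). Cd74 and Siglech were highest in Onway 3, while Irf8 was highest in Onway 2.

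The authors' deposited table also gives a mean per group, and 4 times that mean exceeds the sum of the 3 libraries by a further value of about 1000000 TPM in all, the total of a library. For Irf8 the authors' deposited table gives means of 40.6 TPM (Control) and 69.7 TPM (Onway), and the further values left were 44.4 and 57.2 TPM. For Irf5 these values were 18.1 and 26.0 TPM. For Cebpb the authors' deposited table gives means of 14.3 and 45.0 TPM, and the further values left were 21.6 TPM (Control) and 23.1 TPM (Onway), close to each other and between the 2 sets of libraries. The immediate early genes ran the other way in the further values, which summed to 1109 TPM (Control) and 420 TPM (Onway), with all 11 genes higher in Control. The 6 megakaryocyte markers summed to 875 and 1054 TPM and the 6 muscle markers to 19.6 and 13.3 TPM, so the differences seen between the libraries were not present there at that size. These further values have no error and entered no test.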

How the data were processed

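The authors deposited 1 table of TPM for 158850 transcripts, 16416 of them with identifiers of newly assembled transcripts, together with group means of TPM and transcript lengths. The builds GRCm38 and mm10 stand in the submitters' processing notes. Alignment, quantification and strandedness: not given in the sources used here. Read depth is not kept by TPM, so counting intervals and detection limits are not given. Onway columns carry another prefix and were matched by number. Lengths, deposited by the authors as another column, were used only to describe transcripts. There were 0 other columns of samples.

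Transcripts were summed to genes by gene identifier. The 14192 genes that averaged 1 TPM or more over the libraries were tested as log2(TPM + 1) with limma 3.58.1 in R 4.3.3 (mean-variance trend, robust moderation, 3 against 3, no covariate), two-sided, with Benjamini-Hochberg adjustment over all tested genes at 0.05. On simulated data of 14192 genes, this test called 18% of genes changed by 1 on the log2 scale and 78% of those changed by 2. The simulation changed a small set of genes, up or down at random, with independent noise in each gene. It held no differences between libraries shared across genes, so these rates may not carry over to the real data. Intervals are limma's at 95%. Ratios used an exact permutation test.

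The members and lists were chosen with earlier results of these data known. Named genes are the 10 members, and from each list the genes past the threshold or else the 3 with the smallest p. Mpo and Ms4a3 were added after their values were seen. Markers fixed for 12 cell types and responses were read as sums. T and NK markers summed to 142 to 225 TPM in Control and 96.1 to 123 TPM in Onway (without Nkg7, 38.4, 37.9 and 39.1 against 42.9, 43.6 and 44.5 TPM), monocyte markers to 375 to 666 and 407 to 1028 TPM, and erythroid markers to 116984 to 267815 and 94787 to 340784 TPM. Of the members, 7 of 10 had a RefSeq promoter sequence. Python 3.11.15 was used for tables. Alternatives changed the pseudocount, the filter, the moderation, the scaling, the transcripts and the libraries.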

Additional observations from a re-analysis of the deposited data

Results flagged for a closer look

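Values outside the tested libraries come from the authors' group means, each of which leaves a further value beyond the 3 libraries of its group. For 6 members a further value lay above the highest Control library, which is why they are listed here. In Onway the further value was 20.5 TPM for Cebpa, 23.1 TPM for Cebpb, 42.6 TPM for Cebpd, 15.5 TPM for Cebpg, 57.2 TPM for Irf8 and 26.0 TPM for Irf5. In Control it was 21.6 TPM for Cebpb, where the highest Control library had 14.7 TPM. The immediate early genes, higher in the Onway libraries, were lower in the further Onway value than in the further Control value (420 against 1109 TPM summed). These values have no error, and no test used them.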

How the results depend on the processing

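Each of the 10 members was refitted under 15 alternatives. Of these 150 values, 140 kept their direction and their side of the threshold, 5 passed it and 5 turned sign. Cebpb passed with annotated transcripts alone (log2 fold change 1.97), on leaving out Onway 1 (2.28), and on leaving out Control 4 together with Onway 3 (1.30). The Cebpb values were unchanged with annotated transcripts alone, and only the tested genes around it differed (12714 instead of 14192). Irf8 (0.83) and Irf5 (0.63) passed with quantile normalization. The sign of Cebpe turned without Control 4 (−0.02) and without Onway 1 (−0.055), and that of Cebpg without Control 4 (0.08), without Onway 3 (0.12) and on leaving out Control 4 together with Onway 3 (0.26). Without single libraries the log2 fold change ran from 1.57 to 2.28 for Cebpb and from −0.05 to 0.44 for Cebpe, and from −0.23 to 0.12 for Cebpg. The number of members called higher was 2 with quantile normalization, where 61 of 14163 tested genes were called higher. It was 1 with annotated transcripts alone (40 of 12714 genes) and 1 without both Control 4 and Onway 3 (97 of 14128 genes). Without single libraries it was 0 to 1, against 16 to 87 genes. The members higher without overlap numbered 8 without both and 3 to 6 without single libraries. Genes called higher over all numbered 20 with a filter at 5 TPM, 61 with quantile normalization, 97 without both and 16 to 87 without single libraries, and genes called lower 183 with that filter, 207 without both and 246 to 456 without single libraries. Called genes of the 7 lists numbered 2 of 82 with quantile normalization (Id2 and Meis1), where 61 genes over all were called higher and 437 lower. They numbered 1 of 82 without both (Socs3), against 97 higher and 207 lower over all. Without single libraries they numbered 0 to 2. Il6ra and Klf4 were called higher without Onway 3, where 72 genes were called higher and 254 lower over all. Irf4 was called higher without Onway 1, where 71 were called higher and 285 lower. The ratio of Irf8 to Cebpa moved to 0.15 with annotated transcripts alone, where the assembled Cebpa transcripts drop out. The causes of the other moves were not tested. No paired analysis was possible because the groups share no replicate numbers.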
